A study of Mus musculus with 16 samples.

Results

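The effect of losing Fgf21 in mouse cardiac tissue was measured over both Clpp genotypes at once, as the main effect of Fgf21 in an additive model with Clpp genotype as the second factor. It was tested in the 15255 genes that passed a filter on low counts, of 36499 entries in the count table. The libraries lacking Fgf21 were 4 labelled as Fgf21 KO and 4 labelled as double KO, which lack Fgf21 and Clpp. They were set against 4 wild-type and 4 Clpp KO libraries, so that each group lacking Fgf21 had a counterpart of the same Clpp genotype. All mice received normal chow. The labels describe loxP-flanked alleles of Clpp and Fgf21 that were deleted in the whole body by Cre recombinase under the β-actin promoter, for the Clpp KO and double KO mice. They do not describe how the mice lacking Fgf21 alone were made, and they give no age and no part of the heart. Nothing states that each library comes from its own animal. The p-values therefore reflect how far these libraries vary, and part of that variation may be technical.

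FGF21 is a secreted hormone, released mainly by the liver and also by muscle and heart under mitochondrial or nutritional stress. It signals through FGF receptors together with the co-receptor β-Klotho (Klb) to the ERK kinases, and is best known for raising fatty acid oxidation and ketone body formation. CLPP cleaves proteins inside mitochondria as part of the ClpXP complex, and its loss in the heart is known to raise genes of the integrated stress response, Fgf21 among them.

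Fgf21 lies on chromosome 7 of GRCm38, positions 45613886 to 45615490, on the minus strand (ENSMUSG00000030827). It had 0 counts in all 4 Fgf21 KO libraries, against 1, 0, 5 and 0 counts in wild-type libraries. In double KO libraries it also had 0 counts throughout, against 21, 6, 28 and 14 counts in Clpp KO libraries. Every library labelled as lacking Fgf21 was thus at 0, and 2 wild-type libraries were too. Averaged over both Clpp genotypes, Fgf21 was 0.193 CPM (counts per 1000000 of the library total) lower without the gene (exact two-sided permutation test within Clpp genotype, p = 0.00612, with 0.000408 the smallest p this test can give). With a floor of 3 counts over the 8 libraries, Fgf21 was at least 22.5-fold lower in the libraries lacking it. This bound rests mainly on Clpp KO libraries, which held 69 of the 75 counts, against 6 in wild-type libraries. Its counts were below the filter, so it was not among the genes tested. From here on, levels in CPM and fold changes both carry the TMM correction for library composition (the trimmed mean of M-values). Clpp averaged 37.7 ± 7.48 CPM in Fgf21 KO and 33.6 ± 6.49 CPM in wild-type libraries, and 8.32 ± 1.03 CPM in double KO and 8.62 ± 0.843 CPM in Clpp KO libraries (SD, n = 4 each).

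Libraries held 36260545 to 51820727 counts. Myl2, the ventricular myosin light chain, was present at 3679 to 9154 CPM in all 16. Myl7, the atrial myosin light chain, ran from 0.289 to 1729 CPM, and was highest in wild-type replicates 2 and 4. Replicate 4 also held the most of the brown fat gene Ucp1, at 22.3 CPM against 0 to 2.36 CPM in the other libraries. Replicate 2 stood apart in Y-linked transcripts, at 2.29 CPM against 35.3 to 81.1 CPM in the other libraries. No 2 libraries of a group were nearer to each other than wild-type replicates 1 and 3. The median over genes of the chi-square between their counts was 0.855, where sampling alone gives 0.455 and the other pairs within groups ran from 1.62 to 40.5. They were kept as separate libraries. Where stated, values are also given without some of these libraries.

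Few genes were called by edgeR between libraries lacking Fgf21 and libraries with it. At an adjusted p below 0.05 (edgeR quasi-likelihood test, Benjamini-Hochberg over all genes tested), 22 of 15255 genes were called, which is 0.144% of those tested. Of these, 14 were higher (0.0918%) and 8 were lower (0.0524%) in libraries lacking Fgf21. All 22 had the same sign of change in both Clpp genotypes, and in 20 of them the libraries of the paired groups did not overlap in either genotype, as 37 genes in all did (0.243%). In 17 of the 22, 12 higher and 5 lower, all 8 libraries lacking Fgf21 lay on one side of all 8 libraries with it. Every gene with that separation is among the 37 (0.243%), and Tmod4, which was not called, is one of them. At an unadjusted p below 0.05 there were 1878 genes. In the same fit the effect of Clpp genotype was called in 829 genes (5.43%). DESeq2 called 73 genes and limma voom with quality weights 384, and 22 and 21 of the edgeR calls were among them.

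**Figure D1:**
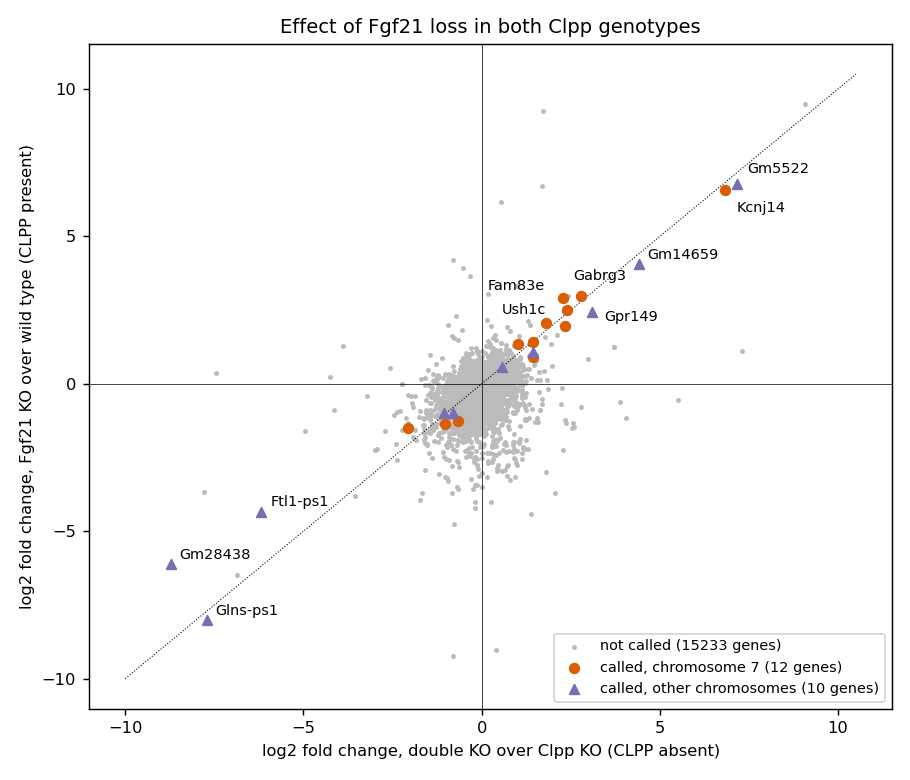
Each point is 1 of the 15255 genes tested, with its log2 fold change for double KO over Clpp KO on the horizontal axis and for Fgf21 KO over wild type on the vertical axis; the dotted line marks equal changes. The 12 called genes on chromosome 7 (circles) and the 10 called elsewhere (triangles) have the same sign on both axes, from Gm28438 at −8.73 and −6.11, off the line, to Gm5522 at 7.16 and 6.78.

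The strongest of the calls was Kcnj14, which encodes an inward rectifier potassium channel and lies 201 kb from Fgf21 on the side of higher coordinates (chromosome 7, 45816460 to 45824782). Kcnj14 stood at 48.3, 23.4, 45.4 and 37.7 CPM in Fgf21 KO libraries, against 0.623, 0.151, 0.698 and 0.143 CPM in wild-type libraries. In double KO libraries it stood at 33.9, 39.7, 21.3 and 32.5 CPM, against 0.343, 0.306, 0.146 and 0.314 CPM in Clpp KO libraries. The lowest library lacking Fgf21 was thus far above the highest library with it, in both genotypes. Kcnj14 rose by 6.68 ± 0.31 on the log2 scale (SE; edgeR, adjusted p = 3.25e-09), by 6.57 with CLPP present and by 6.84 without it. Of its 31-mers 35.6% also occur in the pseudogene Gm5522 on chromosome 1, which had 116 counts over the 8 libraries lacking Fgf21 and 0 in the 8 others, at least 42.9-fold higher taking 3 counts over the 8 others as the floor. With both entries summed, Kcnj14 rose by 6.70 ± 0.31 (adjusted p = 3.08e-09).

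Ush1c, which encodes the scaffold protein harmonin of sensory hair cells and intestinal epithelium, lies 580 kb from Fgf21 on the same side. Its levels were 18.7, 12.4, 19.6 and 14 CPM in Fgf21 KO libraries, against 3.26, 3.91, 3.08 and 1.17 CPM in wild-type libraries. They were 16.1, 16.5, 15.3 and 15.3 CPM in double KO libraries, against 2.47, 2.32, 3.04 and 4.24 CPM in Clpp KO libraries. The groups did not overlap, and the 8 libraries lacking Fgf21 stayed within 12.4 to 19.6 CPM across both Clpp genotypes. Ush1c rose by 2.45 ± 0.19 on the log2 scale (edgeR, adjusted p = 3.30e-06).

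Bcat2 encodes the mitochondrial aminotransferase that takes the first step in the breakdown of branched-chain amino acids, and ends 24.2 kb from Fgf21 on the side of lower coordinates. It stood at 195, 142, 141 and 113 CPM in Fgf21 KO libraries, against 63.5, 36.7, 60.02 and 74.2 CPM in wild-type libraries. In double KO libraries Bcat2 stood at 106, 118, 150.4 and 131 CPM, against 65.6, 52.3, 63.5 and 69.3 CPM in Clpp KO libraries. The lowest library lacking Fgf21, at 106 CPM, was above the highest library with it, at 74.2 CPM. Bcat2 rose by 1.17 ± 0.14 on the log2 scale (edgeR, adjusted p = 0.000533), and was one of 2 called genes in the pathway lists described further on, beside mt-Nd3. In the same pathway Bckdk, chosen after its values were seen and encoding the kinase that inhibits the next step, was at 0.26 ± 0.09 and was not called (adjusted p = 0.388).

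A further 3 genes with their own symbol and a mean of at least 1 CPM were called higher. Lrrc4b, a synaptic adhesion protein gene at 1150.5 kb from Fgf21, averaged 31.4 ± 8.92 CPM in Fgf21 KO and 11.8 ± 6.13 CPM in wild-type libraries, and 36 ± 9.1 CPM in double KO and 13.3 ± 4.31 CPM in Clpp KO libraries (SD, n = 4 each). Lrrc4b rose by 1.42 ± 0.24 on the log2 scale (edgeR, adjusted p = 0.0164), a call that ended without Clpp KO replicate 3 (0.0509). Car11, a carbonic anhydrase relative without catalytic activity at 84.4 kb, averaged 5.81 ± 0.669 CPM in Fgf21 KO and 3.13 ± 0.989 CPM in wild-type libraries, and 4.62 ± 1.19 CPM in double KO and 1.71 ± 0.299 CPM in Clpp KO libraries (SD, n = 4 each). Car11 rose by 1.15 ± 0.17 (edgeR, adjusted p = 0.00347, and 0.117 scaled by library size alone), with the genotypes separated within each Clpp background but overlapping across them. The third was mt-Nd3, described with its nuclear copy further on.

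Fewer neighbours were lower. Mamstr, a coactivator of the muscle transcription factor MEF2 at 24.5 kb, stood at 1.81, 1.67, 1.56 and 1.79 CPM in Fgf21 KO libraries, against 3.3, 4.11, 3.53 and 5.61 CPM in wild-type libraries. Mamstr stood at 1.63, 1.72, 2.11 and 1.51 CPM in double KO libraries, against 3.3, 2.5, 2.38 and 2.92 CPM in Clpp KO libraries. All 8 libraries lacking Fgf21 were at 2.11 CPM or less, and all 8 with it at 2.38 CPM or more. Mamstr fell by 0.98 ± 0.14 on the log2 scale (edgeR, adjusted p = 0.00347). Ccdc114, which encodes a docking factor of ciliary dynein arms at 309 kb, averaged 0.873 ± 0.0890 CPM in Fgf21 KO and 2.26 ± 0.902 CPM in wild-type libraries, and 0.734 ± 0.173 CPM in double KO and 1.52 ± 0.408 CPM in Clpp KO libraries (SD, n = 4 each). Ccdc114 fell by 1.21 ± 0.19 (edgeR, adjusted p = 0.00687), and its highest library lacking Fgf21 was below its lowest library with it.

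**Figure D2:**
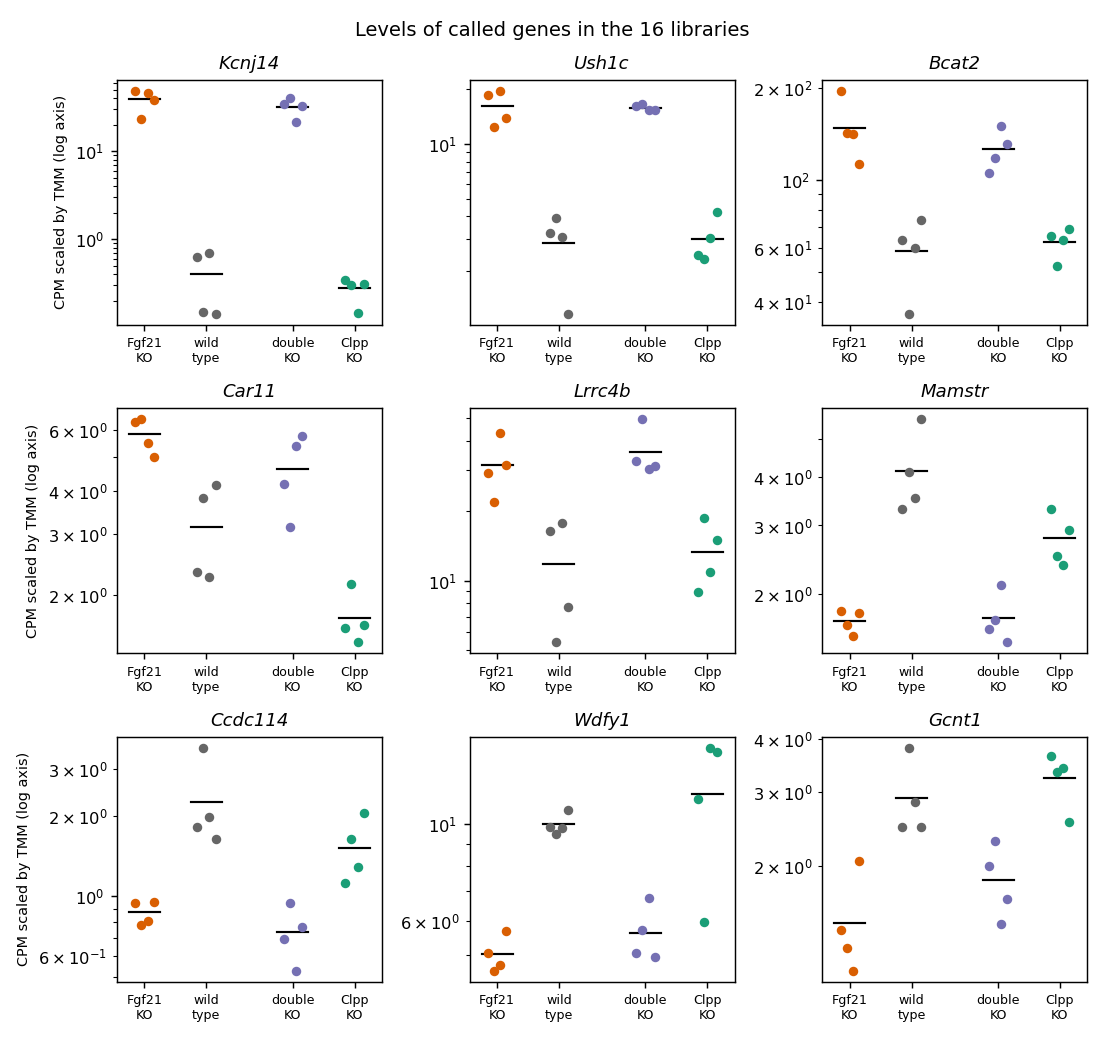
Levels of 9 called genes in CPM scaled by TMM on log axes, with 1 point per library, a bar at the mean of each group of 4, and the pairs Fgf21 KO with wild type and double KO with Clpp KO side by side. Kcnj14, Ush1c, Bcat2, Car11 and Lrrc4b are higher and Mamstr, Ccdc114, Wdfy1 and Gcnt1 lower in libraries lacking Fgf21, and the one Clpp KO library of Wdfy1 near the double KO level is replicate 2, at 5.95 CPM.

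Of the 22 called genes, 12 lie on chromosome 7, and most of these lie close to Fgf21. Within 1 Mb of Fgf21, 9 of 77 genes tested were called (11.7%), 6 higher and 3 lower. From 1 to 5 Mb 2 of 63 were called (3.17%), from 5 to 20 Mb 1 of 212 (0.472%), and farther on chromosome 7 edgeR called 0 of 867 (116 with an unadjusted p below 0.05; 3 called by DESeq2 and 16 by limma voom). On the other chromosomes 10 of 13835 were called (0.0723%). DESeq2 called 10 of the 77 nearest genes and limma voom 16, against 51 and 328 of the 13835 on other chromosomes. The median absolute log2 fold change was 0.23 within 1 Mb, 0.21 from 1 to 5 Mb, 0.16 from 5 to 20 Mb, 0.14 farther on chromosome 7 and 0.13 on other chromosomes. Changes near Fgf21 went both ways: at 6.32 kb Izumo1 was lower, at 24.2 kb Bcat2 was higher and at 24.5 kb Mamstr was lower. Loss of Fgf21 and any other DNA difference that the libraries lacking it share, near Fgf21 or elsewhere, cannot be told apart in this design. This holds for the called genes on other chromosomes too.

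The other called genes of chromosome 7 were low in level, and were chosen after their values were seen. Aspdh, named for an aspartate dehydrogenase domain, lies 1146 kb from Fgf21 beside Lrrc4b and averaged 1.75 ± 1.02 CPM in Fgf21 KO and 0.412 ± 0.132 CPM in wild-type libraries, and 1.32 ± 0.274 CPM in double KO and 0.379 ± 0.0730 CPM in Clpp KO libraries (SD, n = 4 each; log2 change 1.94 ± 0.26). Fam83e at 106 kb rose by 2.61 ± 0.39 and the pseudogene Gm18706 at 476 kb by 2.12 ± 0.31. Gabrg3, a subunit gene of the GABA type A receptor, was the most distant call on this chromosome at 11101 kb, and rose by 2.88 ± 0.43 (edgeR, adjusted p = 0.00403). Gabrg3 ran from 0.404 to 2.35 CPM in the 8 libraries lacking Fgf21, against 0.0511 to 0.287 CPM in the 8 others. Izumo1, the sperm protein that binds the egg, is the nearest called gene and fell by 1.73 ± 0.32 (edgeR, adjusted p = 0.0285). The call of Izumo1 held in 4 of 16 omissions of a single library, those of wild-type replicate 3, Fgf21 KO replicate 1, Clpp KO replicate 4 and double KO replicate 3, and its adjusted p reached 0.112. Without wild-type replicates 2 and 4 it was 0.101. Of its 31-mers 20.0% occur in Rasip1, which was not called (0.12 ± 0.11, adjusted p = 0.623), and counting by strand is not stated.

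Klk1b22, a kallikrein gene 1497 kb from Fgf21 that was also chosen after its values were seen, was detected in every library lacking Fgf21 and in none of the others. It had 193, 156, 5 and 61 counts in Fgf21 KO libraries, against 0 in all 4 wild-type libraries. It had 77, 119, 10 and 2 counts in double KO libraries, against 0 in all 4 Clpp KO libraries. Klk1b22 was at least 230.3-fold higher without Fgf21, taking 3 counts over the 8 others as the floor, and was not called (edgeR, adjusted p = 0.17). The counts of the detected libraries ranged widely, and kallikreins of this family are close in sequence, so its counts are uncertain.

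**Figure D3:**
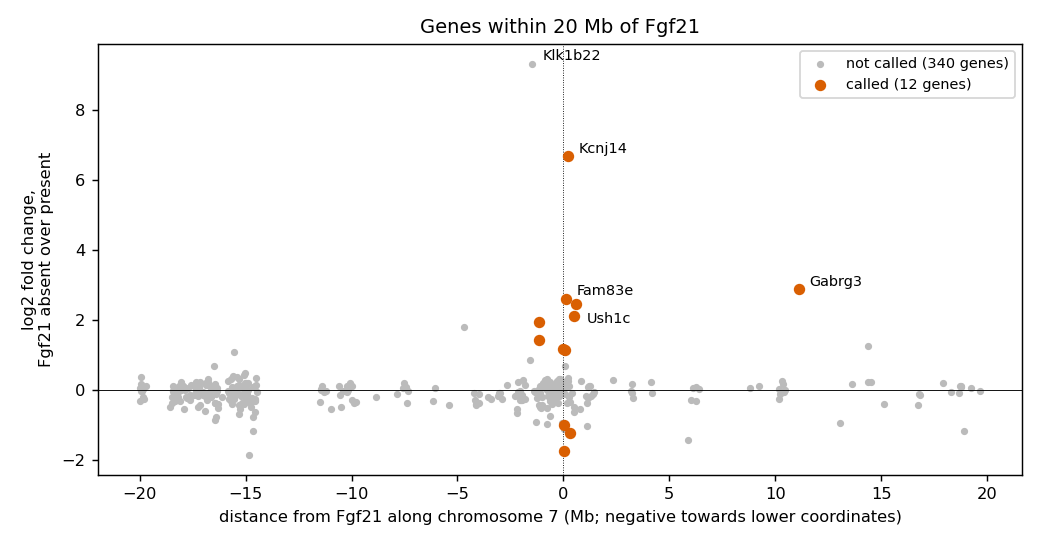
Log2 fold change of libraries lacking Fgf21 over libraries with it, against distance from Fgf21 in Mb, for the genes tested within 20 Mb on chromosome 7. The called genes (orange) gather within 1150.5 kb on both sides, apart from Gabrg3 at 11101 kb, and include changes in both directions; Klk1b22 was not called.

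Among called genes on other chromosomes, 2 with a symbol of their own and a mean of at least 1 CPM were lower. Wdfy1, on chromosome 1 (79702262 to 79776143), encodes an adaptor that recruits TRIF to Toll-like receptors. Wdfy1 stood at 5.05, 4.61, 4.74 and 5.67 CPM in Fgf21 KO libraries, against 9.84, 9.49, 9.79 and 10.7 CPM in wild-type libraries. It stood at 5.07, 5.69, 6.77 and 4.94 CPM in double KO libraries, against 11.4, 5.95, 14.9 and 14.6 CPM in Clpp KO libraries. The wild-type libraries were close to each other and clear of Fgf21 KO, while Clpp KO replicate 2 lay among the double KO libraries. Wdfy1 fell by 1.02 ± 0.14 on the log2 scale (edgeR, adjusted p = 0.00244), and its call held in 16 of 16 omissions of a single library.

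Gcnt1, on chromosome 19 (17326141 to 17372844), encodes the enzyme that starts core 2 branches on O-linked glycans. Gcnt1 stood at 1.41, 1.27, 1.13 and 2.05 CPM in Fgf21 KO libraries, against 2.47, 3.82, 2.84 and 2.48 CPM in wild-type libraries. It stood at 2.00, 2.29, 1.46 and 1.67 CPM in double KO libraries, against 3.66, 3.34, 3.43 and 2.55 CPM in Clpp KO libraries. The highest library lacking Fgf21 was just below the lowest library with it. Gcnt1 fell by 0.90 ± 0.15 (edgeR, adjusted p = 0.0115), and was not called with library size alone as the scaling (0.0578), or with wild-type replicate 2 left out and replicates 1 and 3 summed (0.0537), a setting added after the data were seen.

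The remaining calls off chromosome 7 were low genes or gene copies, chosen after their values were seen. Gpr149, an orphan G protein-coupled receptor gene on chromosome 3, ran from 0.179 to 0.481 CPM without Fgf21, against 0 to 0.0972 CPM with it (log2 change 2.74 ± 0.38; edgeR, adjusted p = 0.00231). The pseudogene Gm14659 on the X chromosome was at 1.26 to 1.83 CPM without Fgf21, against 0 to 0.136 CPM with it, and rose by 4.21 ± 0.28 (adjusted p = 3.03e-07). Gm14327 on chromosome 2 rose by 0.56 ± 0.11 (adjusted p = 0.0412). The call of Gm14327 held in 4 of 16 omissions of a single library, those of wild-type replicates 2 and 3, Clpp KO replicate 1 and double KO replicate 1, and 93.0% of its 31-mers occur in other genes.

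Several calls concerned a gene and an entry that shares sequence with it, between which the counting program divides reads. The largest in counts was mt-Nd3, which is encoded in mitochondrial DNA and specifies a core subunit of complex I of the respiratory chain, and its copy Gm28438 on chromosome 1. The copy lies in a stretch of mitochondrial DNA inserted in the nuclear genome. Over the 345 bases of both annotated transcripts that can be set side by side the reference sequences differ at 1 base, T3C, counted from 1 at the 5′ end of mt-Nd3 (chromosome M, 9461). The first 60 bases of each in GRCm38 are shown, with the base that differs in capitals. The transcript of mt-Nd3, at 348 bases, is 3 bases longer at its end than that of Gm28438.
mt-Nd3, chrM:9459-9518, plus strand: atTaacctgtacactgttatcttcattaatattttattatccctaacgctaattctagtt
Gm28438, chr1:24613060-24613119, minus strand: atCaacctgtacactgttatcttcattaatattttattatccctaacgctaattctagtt
Of the 31-mers of mt-Nd3 98.1% occur in Gm28438, and 99.0% of those of Gm28438 occur in mt-Nd3.

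The division of reads between this pair followed the Fgf21 genotype. Gm28438 stood at 0.160, 11.5, 46.5 and 0.279 CPM in Fgf21 KO libraries, against 1315, 552, 1258 and 928 CPM in wild-type libraries. It stood at 14.8, 16.1, 6.30 and 0.770 CPM in double KO libraries, against 3240, 3783, 4207 and 4938 CPM in Clpp KO libraries. Every library lacking Fgf21 was below 50 CPM for the copy and every library with it at 552 CPM or more. The copy took 0.00428 to 0.985% of the reads of both entries in Fgf21 KO libraries, against 29.3 to 37.4% in wild-type libraries. It took 0.00533 to 0.149% in double KO libraries, against 40.5 to 50.0% in Clpp KO libraries. Which base the reads carried at this position was not analysed here, since the counts hold no sequence. Such a division was not examined for the other mRNAs of mitochondrial DNA. The entries Gm28661 and Gm28437, chosen after their values were seen and whose shared sequence was not counted, had higher means without Fgf21. Gm28661 averaged 3864 CPM in Fgf21 KO, 385 CPM in wild-type, 9506 CPM in double KO and 4743 CPM in Clpp KO libraries. Gm28437 averaged 180, 1.72, 221 and 69.0 CPM in the same order. For both, libraries with and without Fgf21 overlapped in each Clpp genotype.

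Taken as an entry of its own, mt-Nd3 rose by 1.25 ± 0.14 on the log2 scale (edgeR, adjusted p = 0.000325) and Gm28438 fell by 7.41 ± 1.16 (adjusted p = 0.0115). With both entries summed the level was 3900 ± 558 CPM in Fgf21 KO and 2870 ± 781 CPM in wild-type libraries, and 13200 ± 2360 CPM in double KO and 8920 ± 1400 CPM in Clpp KO libraries (SD, n = 4 each). The summed entry of mt-Nd3 was at 0.50 ± 0.14 and was not called (adjusted p = 0.376). All 13 mRNAs of mitochondrial DNA were above 0, with a median of 0.21, and mt-Nd3 was the only one called. Chosen after its values were seen, mt-Nd1, another complex I subunit, was at 0.23 ± 0.16 (edgeR, adjusted p = 0.508). With library size alone as the scaling 10 of the 13 were above 0, and without wild-type replicates 2 and 4 it was 7 of 13. The mRNAs of mitochondrial DNA together made up 36.1 ± 4.62% of counts in Fgf21 KO and 33.2 ± 7.09% in wild-type libraries, and 58.8 ± 1.99% in double KO and 58.0 ± 1.44% in Clpp KO libraries (SD, n = 4 each). Averaged over Clpp genotypes the share was 1.77 percentage points higher without Fgf21, a difference that did not pass the exact two-sided permutation test (p = 0.4), and it was −1.24 points without wild-type replicates 2 and 4. Leaving out single libraries gave 0.492 (without wild-type replicate 2) to 2.92 points (without Fgf21 KO replicate 1).

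**Figure D4:**
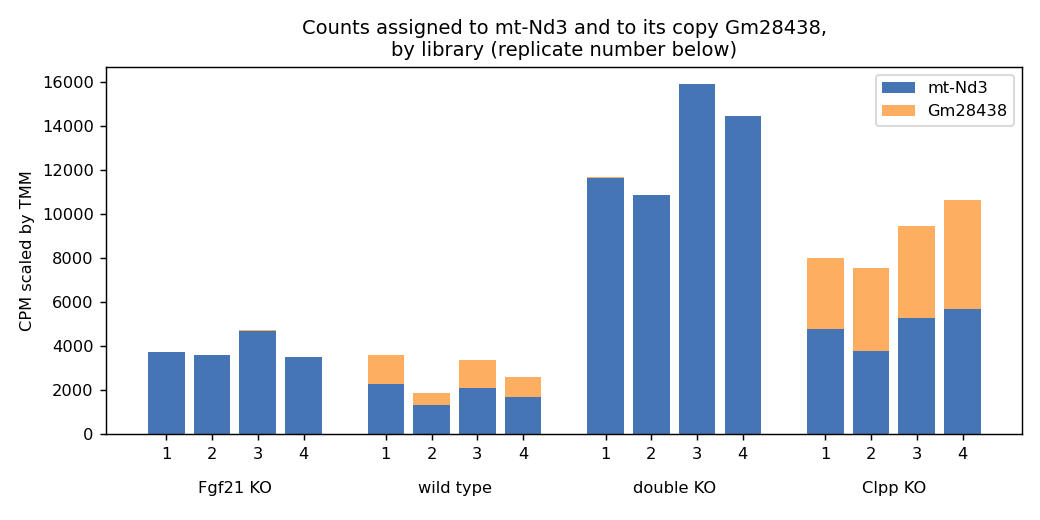
Stacked bars of the CPM assigned to mt-Nd3 (blue) and to its nuclear copy Gm28438 (orange) in each of the 16 libraries, with the replicate number below each bar. The orange part is at most 0.985% of the bar in the 8 libraries lacking Fgf21 and at least 29.3% in the 8 others.

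A further 2 entries named as pseudogenes were also lower without Fgf21, and were chosen after their values were seen. Unlike Gm28438, they took at most 1.55% (Ftl1-ps1) and 2.73% (Glns-ps1) of the reads of their pair in any library. Ftl1-ps1 on chromosome 13 shares 63.5% of its 31-mers with Ftl1, the ferritin light chain gene, and ran from 0 to 0.239 CPM without Fgf21, against 1.31 to 4.54 CPM with it. Ftl1-ps1 fell by 4.89 ± 0.41 on the log2 scale (edgeR, adjusted p = 4.76e-06), while Ftl1 with its copy summed was at 0.09 ± 0.14 and was not called (0.79). Glns-ps1 on chromosome 11 shares 46.9% of its 31-mers with Glul, the glutamine synthetase gene, and fell by 7.84 ± 0.91 (adjusted p = 0.000501). It had reads in 2 of 8 libraries lacking Fgf21, at 0.0196 and 0.0533 CPM. Among libraries with Fgf21 it ran from 0.0243 CPM, in Clpp KO replicate 3, to 6.02 CPM. Glul and Glns-ps1 summed were at 0.26 ± 0.16 and were not called (0.471). With these 4 pairs each summed into 1 entry, a setting added after the data were seen, 16 genes were called.

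The additive model gives 1 effect for both Clpp genotypes, and the effects were also fitted separately. With CLPP present, Fgf21 KO against wild type gave 7 called genes (0.0459%), and without CLPP, double KO against Clpp KO gave 9 (0.059%). Of the 22 genes called in the pooled effect, 7 were called with CLPP, 8 without it and 12 in neither alone. Bcat2 was at 1.34 with CLPP and 1.01 without it, and Mamstr at −1.27 and −0.68. The difference between the effects was called in 0 of 15255 genes by edgeR (0%, with 299 at an unadjusted p below 0.05), in 3 by DESeq2 and in 1 by limma voom.

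The 5 genes with the smallest p for that difference were Eps8l1, Nab1, Vmn2r3, Vps33b and Gm17538, each with an adjusted p of 1 in edgeR. Eps8l1, an actin regulator gene related to Eps8, averaged 3.66 ± 0.767 CPM in Fgf21 KO and 8.46 ± 1.40 CPM in wild-type libraries, and 5.42 ± 1.36 CPM in double KO and 4.61 ± 0.992 CPM in Clpp KO libraries (SD, n = 4 each). Its effect was −1.21 with CLPP and 0.23 without it. Vmn2r3, a member of the vomeronasal receptor family, stood at 1.17, 1.37, 0.590 and 0.866 CPM in double KO libraries, against 4.64, 3.34, 3.69 and 5.31 CPM in Clpp KO libraries. It stood at 0.302, 0.294, 0.263 and 0.139 CPM in Fgf21 KO libraries, against 0.275, 0.453, 0.272 and 0.287 CPM in wild-type libraries. Every double KO library was below every Clpp KO library, and both groups with CLPP were low, at 0.139 to 0.453 CPM. It was called without CLPP (−2.08, edgeR adjusted p = 0.00493) and not in the pooled effect (−1.34 ± 0.30, adjusted p = 0.136, and 0.00217 to 0.387 over 29 alternatives). The 3 alternatives that passed were DESeq2 (0.00389), limma voom (0.00217) and the mean of both effects (0.0203).

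Gene lists were described by their counts and medians. Over all genes tested, 7457 were above 0 and 7798 below, 919 higher and 959 lower at an unadjusted p below 0.05, and the median log2 change was −0.01. With library size alone as the scaling this median was −0.19, and list values under that scaling are to be read against it. In all 24 pathway lists, which held 638 genes tested, mt-Nd3 and Bcat2 were the only members called by edgeR. DESeq2 called 7 of the 638 and limma voom 26. Over all 15255 genes tested, edgeR called 22, DESeq2 73 and limma voom 384. The values that follow are of members that did not pass the test, unless it is said that they did. In whole tissue, fewer cells of a type and less RNA per cell cannot be told apart.

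Most genes of FGF receptor signalling lay below 0, and none was called by edgeR or DESeq2. Of 21 tested FGF receptors, co-receptors and ERK feedback genes, 16 were below 0 and 5 above, 5 were lower at an unadjusted p below 0.05 and the median was −0.18. Egr1, an immediate early transcription factor that ERK induces, stood at 4.43, 4.29, 5.60 and 12.7 CPM in Fgf21 KO libraries, against 16.6, 17.0, 17.0 and 23.4 CPM in wild-type libraries. In double KO libraries Egr1 stood at 7.74, 12.3, 4.87 and 3.46 CPM, against 7.07, 10.3, 9.52 and 13.4 CPM in Clpp KO libraries. The groups were apart with CLPP present and overlapped without it. Egr1 was at −0.99 ± 0.29 on the log2 scale (edgeR, adjusted p = 0.388, and 0.0395 to 0.565 over 30 alternatives, of which limma voom alone passed). Spred1, an inhibitor of the same cascade, was at −0.28 ± 0.09 (adjusted p = 0.388). The co-receptors Klb and Kl and the receptor Fgfr4 were below the filter.

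The integrated stress response had 15 of 22 members below 0, with 6 lower and 0 higher at an unadjusted p below 0.05 and a median of −0.14. It had 13 below 0 without wild-type replicates 2 and 4, with 3 lower and 2 higher at an unadjusted p below 0.05. The median was then −0.15. Gdf15, a stress hormone secreted in mitochondrial disease, stood at 0.943, 0.275, 0.733 and 0.677 CPM in Fgf21 KO libraries, against 1.52, 1.27, 1.89 and 0.902 CPM in wild-type libraries. In double KO libraries Gdf15 stood at 2.99, 7.61, 0.435 and 0.930 CPM, against 7.48, 7.25, 7.46 and 7.79 CPM in Clpp KO libraries. Clpp KO libraries were tightly grouped, while double KO libraries spread from 0.435 CPM to within the range of Clpp KO. Gdf15 was at −1.21 ± 0.42 (edgeR, adjusted p = 0.388, and 0.0362 to 0.571 over 30 alternatives, of which limma voom alone passed), and Eif2ak3, the kinase PERK, at −0.38 ± 0.13 (adjusted p = 0.388).

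Serine, one-carbon and proline synthesis, a set of enzymes that ATF4 induces in mitochondrial stress, had 14 of 20 members below 0 and 6 lower at an unadjusted p below 0.05, with a median of −0.21. The median was −0.18 with CLPP present and −0.07 without it. Over both genotypes but without wild-type replicates 2 and 4 it was −0.12, with 6 lower at an unadjusted p below 0.05. The 4 members described were picked by their p or after their values were seen. Asns, asparagine synthetase, stood at 8.56, 10.8, 4.47 and 6.29 CPM in double KO libraries, against 19.0, 23.6, 19.0 and 19.2 CPM in Clpp KO libraries. Asns stood at 1.65, 1.00, 1.62 and 1.67 CPM in Fgf21 KO libraries, against 1.45, 2.63, 1.45 and 3.93 CPM in wild-type libraries. The groups were apart where CLPP was absent and overlapped where it was present. Over both genotypes Asns was at −1.07 ± 0.23 (edgeR, adjusted p = 0.136). It passed without wild-type replicate 1 (0.0473) or replicate 3 (0.0416), with DESeq2 (0.00315) and with limma voom (0.0103), and over 30 alternatives its adjusted p reached 0.34.

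Pycr1, a proline synthesis enzyme, ran from 1.37 to 2.89 CPM in double KO and from 3.84 to 5.51 CPM in Clpp KO libraries, and was at −0.91 ± 0.21 (edgeR, adjusted p = 0.159, 0.0352 without wild-type replicate 1, 0.00893 with DESeq2 and up to 0.381 over 30 alternatives). Mthfd2, a mitochondrial folate enzyme, and Phgdh, the first enzyme of serine synthesis, were chosen after their values were seen. Mthfd2 stood at 18.5, 23.4, 6.64 and 13.6 CPM in double KO libraries, against 45.2, 47.8, 39.7 and 37.0 CPM in Clpp KO libraries, and was at −1.21 ± 0.28 over both genotypes (edgeR, adjusted p = 0.174, 0.0036 with DESeq2, 0.00686 with limma voom and up to 0.4 over 30 alternatives). Phgdh ran from 2.08 to 7.24 CPM in double KO and from 14.9 to 16.3 CPM in Clpp KO libraries, and was at −1.37 ± 0.33 (adjusted p = 0.188, 0.00626 with DESeq2, 0.0104 with limma voom and up to 0.445 over 30 alternatives). In these enzymes, picked by their p or after their values were seen, the double KO libraries lay below every Clpp KO library. Fgf21 KO and wild-type libraries overlapped. How many of all genes tested were apart in this way was not counted, so the separation says nothing about the list. None of these enzymes had an effect that differed between Clpp genotypes in edgeR (adjusted p = 1 each). Amino acid transporters had 11 of 14 members below 0 and a median of −0.39, with 7 lower at an unadjusted p below 0.05 and 0 without wild-type replicates 2 and 4. Cytosolic aminoacyl-tRNA synthetases had 10 of 20 on each side of 0.

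Nuclear genes of oxidative phosphorylation lay above 0 almost without exception, by small amounts. All 36 tested subunits of complex I were above 0, with a median of 0.23, a range of 0.12 to 0.33 and 16 higher at an unadjusted p below 0.05. Of 42 subunits of complexes II to V, 41 were above 0, with a median of 0.23 and 15 higher at an unadjusted p below 0.05. With library size alone as the scaling, 31 of 36 and 36 of 42 were above 0 and the medians were 0.04 and 0.06. Without wild-type replicates 2 and 4 the medians were 0.25 and 0.21. Members with the smallest p were Ndufs3, a complex I subunit at 0.32 ± 0.12, Ndufb5 at 0.30 ± 0.11, Cox7a1, the muscle form of a complex IV subunit, at 0.36 ± 0.11, and Uqcrfs1, the Rieske iron-sulphur protein of complex III, at 0.29 ± 0.11 (edgeR, adjusted p = 0.388 each). Cox7a1 averaged 433 ± 88.6 CPM in Fgf21 KO and 342 ± 51.8 CPM in wild-type libraries, and 299 ± 27.3 CPM in double KO and 228 ± 35.8 CPM in Clpp KO libraries (SD, n = 4 each). Ventricular cardiomyocyte markers moved with these genes: 11 of 12 were above 0, with a median of 0.26. Their summed level ran from 47000 to 70800 CPM without Fgf21 and from 30700 to 52500 CPM with it. The low end with Fgf21 was wild-type replicate 2, and the next lowest such library, Clpp KO replicate 2, was at 43980 CPM. The part of ventricular muscle in the values of these lists was not tested.

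Mitochondrial chaperones and proteases had 25 of 25 members above 0, with a median of 0.19, 4 higher at an unadjusted p below 0.05, and 15 of 25 above 0 with library size alone. Without wild-type replicates 2 and 4, 19 of 25 were above 0 and the median was 0.09. The list of fatty acid uptake, oxidation and targets of the PPAR receptors had 33 of 42 members above 0, with 11 higher and 1 lower at an unadjusted p below 0.05. Its median was 0.29, and 0.15 without wild-type replicates 2 and 4. Cpt2, which completes the transfer of fatty acids into mitochondria, averaged 149 ± 20.5 CPM in Fgf21 KO and 98.6 ± 26.7 CPM in wild-type libraries, and 144 ± 14.4 CPM in double KO and 125 ± 17.2 CPM in Clpp KO libraries (SD, n = 4 each), and was at 0.40 ± 0.13 (edgeR, adjusted p = 0.388). Angptl4, a secreted inhibitor of lipoprotein lipase, went the other way, at −1.37 ± 0.43 (adjusted p = 0.388). Its levels ran from 6.90 to 8.33 CPM in Fgf21 KO libraries, against 5.09, 30.8, 4.26 and 52.2 CPM in the wild type, and from 4.78 to 8.82 CPM in double KO libraries, against 10.1 to 21.9 CPM in Clpp KO libraries. Ketone body and branched-chain amino acid genes other than Bcat2 did not pass, with 22 of 24 above 0 and a median of 0.25, which was 0.08 without those replicates. Glucose uptake and glycolysis genes had 23 of 26 above 0 and a median of 0.22, which was 0.10 without those replicates.

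Interferon-stimulated genes had 40 of 46 members below 0, 5 lower and 0 higher at an unadjusted p below 0.05, and a median of −0.17. The median was −0.32 with CLPP present and 0.00 without it, and −0.05 over both without wild-type replicates 2 and 4. Usp18, which restrains interferon signalling, stood at 1.88, 1.75, 1.71 and 1.67 CPM in Fgf21 KO libraries, against 2.69, 3.31, 2.78 and 2.64 CPM in wild-type libraries. In double KO libraries Usp18 ran from 19.8 to 35.8 CPM, against 26.7 to 34.9 CPM in Clpp KO libraries. The groups were apart with CLPP present, at low levels, and overlapped without it. Usp18 was at −0.40 ± 0.13 (edgeR, adjusted p = 0.388).

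Matrix and fibrosis genes had 35 of 35 tested members below 0, 12 lower at an unadjusted p below 0.05 and a median of −0.37. Col5a2, a fibrillar collagen chain, averaged 16.8 ± 3.54 CPM in Fgf21 KO and 26.0 ± 7.17 CPM in wild-type libraries, and 14.3 ± 4.28 CPM in double KO and 22.0 ± 8.35 CPM in Clpp KO libraries (SD, n = 4 each), and was at −0.62 ± 0.19 (edgeR, adjusted p = 0.388). Without wild-type replicates 2 and 4, 27 of 35 were below 0, 1 was lower at an unadjusted p below 0.05 and the median was −0.23. Fibroblast markers moved with them, with 11 of 11 below 0 and a median of −0.48 (−0.12 without those replicates). Their summed level ran from 1100 to 1850 CPM without Fgf21 and from 1310 to 3790 CPM with it. Atrial cardiomyocyte markers had 11 of 12 below 0 and a median of −1.06, with sums of 223 to 2970 CPM without Fgf21 and 151 to 10400 CPM with it. Without wild-type replicates 2 and 4 their median was −0.04, with 7 of 12 below 0. Adipocyte markers had a median of −2.13, which was 0.34 without wild-type replicates 2 and 4. Their sums ran from 511 to 973 CPM without Fgf21 (median 629) and from 351 to 1010 CPM with it (median 530). The list holds Cox7a1, the muscle subunit gene described above, which made up 552.8 of the 972.6 CPM in Fgf21 KO replicate 1. The sums therefore do not measure adipocytes alone. None of these lists held a gene called by edgeR or DESeq2, no defining marker of fibroblasts or atrial cells was at 0 in every library, and their part in the matrix values was not tested.

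Circadian clock genes had 15 of 20 members above 0, 5 higher at an unadjusted p below 0.05 and a median of 0.40, the highest of the 24 pathway lists. Usp2, a deubiquitinase under clock control, averaged 74.1 ± 23.9 CPM in Fgf21 KO and 44.2 ± 7.62 CPM in wild-type libraries, and 81.5 ± 13 CPM in double KO and 75.8 ± 6.12 CPM in Clpp KO libraries (SD, n = 4 each), and was at 0.43 ± 0.16 (edgeR, adjusted p = 0.388). Cry2, a repressor of the clock, was at 0.48 ± 0.18 (adjusted p = 0.388). The time of day at which tissue was taken is not given in the labels.

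Of the ion channels of the cardiomyocyte, 11 of 24 were above 0 with a median of −0.01. Kcnj11, the pore of the ATP-sensitive potassium channel, lies 478 kb from Fgf21, and Abcc8, which encodes a regulatory subunit of such channels and was chosen after its values were seen, at 489 kb (−0.48 ± 0.14, adjusted p = 0.369). Kcnj11 stood at 59.8, 85.4, 63.3 and 56.9 CPM in Fgf21 KO libraries, against 119, 58.4, 115 and 87.6 CPM in wild-type libraries. It stood at 61.8, 67.9, 75.6 and 73.0 CPM in double KO libraries, against 107, 119, 115 and 110.1 CPM in Clpp KO libraries. The groups were apart without CLPP, and with it only wild-type replicate 2 fell among the Fgf21 KO libraries. Kcnj11 was at −0.61 ± 0.13 and was not called (edgeR, adjusted p = 0.108). It passed under 8 of 30 alternatives, among them without wild-type replicate 2 (0.00212) or Fgf21 KO replicate 2 (0.034) and with DESeq2 (0.00248), and its adjusted p ran from 2.56e-06 to 0.241.

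Of the other pathway lists, none held a gene called by edgeR or DESeq2. Antioxidant and NRF2 targets had 28 of 34 members above 0 and a median of 0.16, which was −0.02 with library size alone. Autophagy and lysosome genes had 25 of 28 above 0 (median 0.10), calcium handling genes 15 of 22 (0.09) and fetal and stress genes of ventricular muscle 14 of 22 (0.11). Genes of the unfolded protein response of the endoplasmic reticulum had 16 of 21 below 0 (median −0.10), and lipid and cholesterol synthesis genes 17 of 25 (−0.13). Insulin and growth factor signalling had 13 of 25 below 0 (−0.04) and cytosolic ribosomal proteins 19 of 34 (−0.01).

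Among markers of other cells, macrophage and monocyte genes had 14 of 15 members below 0 (median −0.17), pericyte and smooth muscle genes 7 of 12 (−0.23) and endothelial genes 6 of 12 (0.00). Red blood cell genes were all above 0 (8 of 8, median 0.10), with medians of −1.26 with CLPP present and 1.53 without it, and double KO replicate 4 held the highest summed level, 11000 CPM. Medians of the remaining lists were −0.78 for 4 neutrophil, −0.09 for 11 lymphocyte, −0.27 for 7 conduction system, −0.11 for 7 lymphatic and −0.40 for 8 epicardial markers. They were −0.33 for 9 Schwann cell and neuronal, −0.10 for 4 melanocyte, 0.15 for 7 skeletal muscle and −0.74 for 4 lung, liver and thymus markers. Of the 152 marker genes tested, 0 were called by edgeR, 0 by DESeq2 and 2 by limma voom. Of all 15255 genes tested, these tools called 22, 73 and 384.

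**Figure D5:**
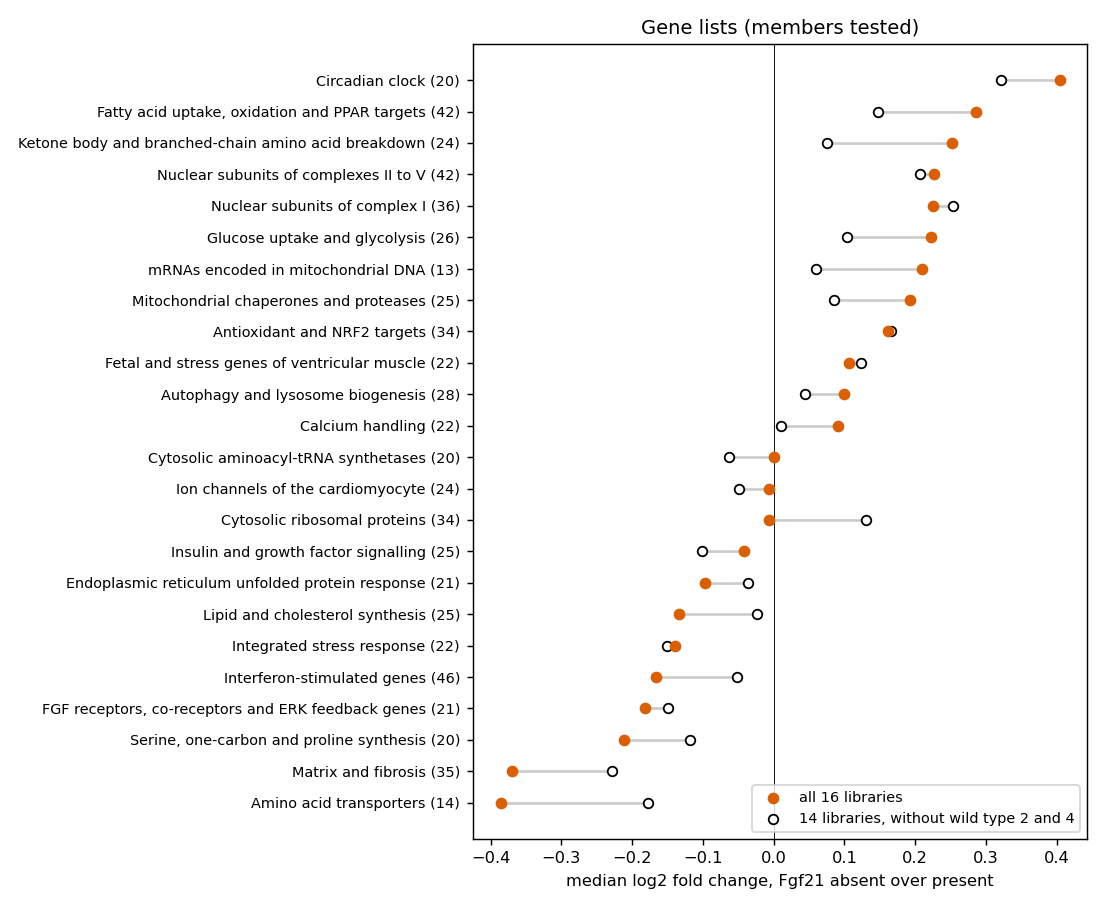
Median log2 fold change of libraries lacking Fgf21 over libraries with it for the 24 pathway lists, with the number of members tested in brackets; filled points use all 16 libraries and open points the 14 libraries without wild-type replicates 2 and 4. Medians run from −0.39 for amino acid transporters to 0.40 for the circadian clock, and many open points lie nearer to 0.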

How the data were processed

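Counts per gene had been deposited by the authors as raw counts for 16 RNA-seq libraries of mouse cardiac tissue, 4 per genotype. The libraries were made with a stranded poly(A) kit per the labels. The submitters' processing notes name fastp 0.21.0, kallisto 0.46.1, edgeR 3.32.1, R 4.0.3, DESeq2 1.30.1 and build GRCm38.p6; whether counting used strand is not stated. Counts were filtered (filterByExpr, minimum count 10, minimum total 15), scaled by TMM and fitted with edgeR 4.0.16 (quasi-likelihood, robust; R 4.3.3) as Clpp genotype plus Fgf21, with 13 residual degrees of freedom and Benjamini-Hochberg adjustment at 0.05. Effects within each Clpp genotype and their difference came from a model with 1 mean per genotype. Fgf21 itself and the mitochondrial share were tested by exact permutation within Clpp genotype (4900 arrangements). Replicate numbers did not pair the libraries. DESeq2 1.42.0, limma 3.58.1 voom, other scalings and filters, and omission of libraries were alternatives. The statistics were tested on simulated counts.

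Positions are from the GENCODE annotation of GRCm38, and sharing of 31-mers was counted over its transcripts. Of the entries, 260 repeat the symbol and counts of an earlier entry, 165 of them among those tested. Genes named were those called with a mean of at least 1 CPM and a symbol of their own (at most 12 each way), up to 4 called members of each list or otherwise its 2 with the smallest p, and the 5 with the smallest p for the difference of the effects; others are said to be chosen after their values were seen, and 1 gene that the rule names is not reported here. The members and the 41 gene lists (24 of pathways, 17 of markers; of 803 genes, 7 absent and 28 below the filter) were chosen with earlier results of these data known.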

Additional observations from a re-analysis of the deposited data

Results flagged for a closer look

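In groups of 4 libraries, a single library stood far from the other 3 in 34 of the 407 groups of values examined. The rate by chance is not known here, since some genes were near 0 counts and the same libraries recur over genes. In each, the gap to the nearest library made up most of the group's range. Several of these concern markers of other tissues, and whether tissue was admixed was not tested. Within its group, double KO replicate 1 was high in the atrial hormone Nppa (731 CPM), Vsnl1 (0.373 CPM, 14 counts) and the lymphatic chemokine Ccl21a (14.7 CPM against 12.5 to 12.7 CPM). It was also high there in the melanocyte gene Mlana (1.49 CPM) and the liver genes Serpina1a (4.08 CPM) and Apoa1 (7.9 CPM). Wild-type libraries reached 5846 CPM of Nppa and 3.709 CPM of Vsnl1, and ran from 16.33 to 26.32 CPM of Ccl21a. Double KO replicate 4 was high in the red cell gene Slc4a1 (4.43 CPM) and in Dgat2 (283 CPM), an enzyme of triglyceride synthesis. The brown fat gene Ucp1 stood out in Fgf21 KO replicate 4 (1.85 CPM), wild-type replicate 4 (22.3 CPM) and Clpp KO replicate 1 (2.36 CPM).

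Wild-type replicate 2 was low in Uqcrfs1 (251 CPM against 418 to 434 CPM in the other 3), the mitophagy receptor gene Bnip3 (49 CPM) and Usp2 (32.8 CPM). It was high in Igf2 (135 CPM), the endothelial gene Egfl7 (112 CPM) and Vmn2r3 (0.453 CPM). Bnip3 was also high in Fgf21 KO replicate 2 (280 CPM) and double KO replicate 3 (313 CPM), and Igf2 in double KO replicate 2 (32.6 CPM).

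Among the genes described for their level, Lrrc4b was high in double KO replicate 2 (49.5 CPM), and Egr1 in Fgf21 KO replicate 4 (12.7 CPM) and wild-type replicate 4 (23.4 CPM). Asns was low in Fgf21 KO replicate 2 (1 CPM) and high in Clpp KO replicate 2 (23.6 CPM against 19 to 19.2 CPM). Clpp KO replicate 2 was also high in the potassium channel gene Kcnk3 (173 CPM) and the antibody chain gene Igkc (3.24 CPM). Fgf21 KO replicate 4 was high in Trim30a (6.85 CPM) and Elovl6 (2.65 CPM), and Fgf21 KO replicate 3 in Ccr2 (1.41 CPM). Fam83e reached 0.147 CPM in wild-type replicate 1, and Glns-ps1 0.0196 CPM in Fgf21 KO replicate 2 and 0.0533 CPM in double KO replicate 1. Fgf21 KO replicate 1 had 29.2% of its counts in mRNAs of mitochondrial DNA, against 37.8 to 38.8% in the other 3.

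The difference in Fgf21 level was −0.356 CPM for double KO minus Clpp KO and −0.0312 CPM for Fgf21 KO minus wild type. For the gap between these differences, permuting Fgf21 labels within each Clpp genotype gave p = 0.0286 (exact two-sided permutation test). That permutation assumes no effect of Fgf21 in either genotype, so it does not test the gap alone. Both groups lacking Fgf21 were at 0 counts, so the gap restates the 69 counts in Clpp KO against 6 in wild-type libraries.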

How the results depend on the processing

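The count of genes called for loss of Fgf21, 22, was 20 to 27 when each library was left out, 20 with a replicate block (replicate numbers did not pair the libraries: r of −0.228 to 0.364 over 24 pairs, 4 of them over 0.1, and 11 of 48 best with their own number), 32 without wild-type replicates 2 and 4 (16 each way) and 13 with a filter of 1 CPM in 8 libraries. It was 73 with DESeq2 (42 higher) and 384 with limma voom (218 higher); the cause was not tested. With CLPP present the 7 calls were 34 with DESeq2, 111 with limma voom, 13 with the atrial score as covariate, 8 with the block and 5 to 8 over omissions. Without CLPP the 9 calls were 4 with the 1 CPM filter, 35 with DESeq2, 41 with limma voom, 15 without wild-type replicates 2 and 4, 6 with the block and 6 to 10 over omissions. The difference of the effects gave 3 with DESeq2, 1 with limma voom and 1 with the atrial score. The mitochondrial share turned to −1.24 points without wild-type replicates 2 and 4, and was 1.77 in the paired form (exact permutation test, p = 0.477). The block ended the calls of Lrrc4b (adjusted p = 0.0682), Izumo1 (0.0618) and Gm14327 (0.131), and so did no filter (at most 0.0543).

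Values for 99 named genes kept direction and side of the threshold in 2850 of 2940 cases. Lists with a median of at least 0.1 in size turned as follows: NRF2 targets −0.0196, fetal genes −0.0505 and skeletal muscle −0.0712 with library size alone; atrial 0.212 and epicardial 0.201 with the atrial score; and conduction 0.467, lymphatic 0.0233, macrophage 0.0452, epicardial 0.641, Schwann cell 0.0682 and adipocyte 0.339 without wild-type replicates 2 and 4. Lists nearer to 0 turned too, red blood cell to −0.292 with the atrial score among them. The genes that turned, none of them called, were Wars (−0.0464), Qars (−0.081) and Gm17538 (−0.0767) with library size alone. With limma voom they were Nppa 0.647, Lyve1 0.0343, Ccl21a 0.0284, Cnn1 0.0258, Trac 0.0126, Slc4a1 −1.6 and Krt19 0.314. With the atrial score Nppa was 0.268 and Slc4a1 −0.00178, and with the replicate block Slc4a1 was −0.134. Without wild-type replicates 2 and 4, Vsnl1 was 0.597, Ccl21a 0.0233, Krt19 0.585 and Gm17538 −0.101. Over omissions, Slc4a1 ran from −1.27 to 0.715, lowest without double KO replicate 4; Gm17538 ran from −0.0324 (without wild-type replicate 2) to 0.222, with −0.0192 without Fgf21 KO replicate 2, and −0.121 without wild-type replicate 2 and with replicates 1 and 3 summed, a setting added after the data were seen. Depth limits genes such as Fgf21, with 0 to 28 counts a library.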

Other observations

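Genes whose libraries were apart in both Clpp genotypes in the same direction but which were not called are given here as values; they were chosen after their values were seen. Josd2, a deubiquitinase gene 1142 kb from Fgf21, was nearest to the threshold, at −0.42 ± 0.08 on the log2 scale (edgeR, adjusted p = 0.0526). Tmod4, the tropomodulin of skeletal muscle thin filaments, was at 0.53 ± 0.13 (adjusted p = 0.188), with all 8 libraries lacking Fgf21 above all 8 with it. Bag3, a chaperone partner that maintains the sarcomere, was at 0.46 ± 0.12 (0.32), and Vgll3, a partner of the TEAD transcription factors, at −0.59 ± 0.15 (0.223). Tcf15, a transcription factor of heart endothelium and early muscle, was at 0.83 ± 0.18 (0.136), and Cnmd, which encodes the antiangiogenic protein chondromodulin, at −1.27 ± 0.30 (0.188).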
